A study of Mus musculus with 6 samples.

Results

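Nfkbia and Tnfaip3 encode inhibitors that the NF-κB pathway induces to shut itself off, and both were followed in whole livers of mice after hepatic ischemia-reperfusion injury (I/R). They are 2 of the 3201 genes in the deposited table, found there by their gene names, and they were chosen by their values, because they stood out for the difference between the genotypes described here. The table itself holds only genes that differed between the same livers in the comparison deposited with it, so the genotype difference of either gene is a description and carries no test.

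RNA-seq was performed on livers from 3 Fgf18 f/f mice, labelled IR, and 3 Fgf18 △HSC mice, labelled FGF18 KNOCKOUT, all males on a C57BL/6 background. Both groups carry loxP-flanked Fgf18, both underwent partial warm I/R with 1 h of ischemia and 6 h of reperfusion, and there was no sham-operated group. A Cre recombinase under control of the GFAP promoter removes Fgf18, the gene of a secreted growth factor, from hepatic stellate cells (HSCs) of the Fgf18 △HSC mice. RNA came from all cells of the liver, so less RNA per cell and fewer cells of a type cannot be told apart. The age of the mice is not given in the sources used here, and the level of Fgf18 was not analysed here.

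NF-κB transcription factors are held in the cytoplasm by IκB proteins. Signals from TNF, IL-1 or Toll-like receptors pass through adaptor kinases and ubiquitin chains to the IκB kinase, which marks IκB for degradation, and the freed NF-κB enters the nucleus. Nfkbia encodes IκBα, which rebinds NF-κB and carries it out of the nucleus, and Tnfaip3 encodes A20, a ubiquitin-editing enzyme that dismantles the signal above the kinase. Both genes are direct NF-κB targets, so each closes a negative feedback loop. In liver the pathway is known for driving inflammatory genes in Kupffer cells and survival genes in hepatocytes.

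Nfkbia (ENSMUSG00000021025) lies on the minus strand of chromosome 12 of GRCm38, from 55489410 to 55492647, with 6 exons in its coding transcript Nfkbia-201. Tnfaip3 (ENSMUSG00000019850) lies on the minus strand of chromosome 10, from 19000910 to 19015657, with 9 exons in Tnfaip3-201 and 4 coding transcripts in all. Their promoters are shown because NF-κB acts there. Each window runs from 250 bases before to 50 bases after a transcription start in RefSeq (GRCm38.p6, minus strand, chr12:55492598-55492897 for Nfkbia and chr10:19015361-19015660 for Tnfaip3), and capitals mark every match to the 10-base κB consensus on either strand.
Nfkbia: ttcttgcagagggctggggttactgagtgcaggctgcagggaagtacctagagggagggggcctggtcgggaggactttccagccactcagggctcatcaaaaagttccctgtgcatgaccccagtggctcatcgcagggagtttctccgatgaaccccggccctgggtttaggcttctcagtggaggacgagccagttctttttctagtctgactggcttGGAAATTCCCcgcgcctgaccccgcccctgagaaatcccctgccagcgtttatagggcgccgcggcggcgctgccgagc
Tnfaip3: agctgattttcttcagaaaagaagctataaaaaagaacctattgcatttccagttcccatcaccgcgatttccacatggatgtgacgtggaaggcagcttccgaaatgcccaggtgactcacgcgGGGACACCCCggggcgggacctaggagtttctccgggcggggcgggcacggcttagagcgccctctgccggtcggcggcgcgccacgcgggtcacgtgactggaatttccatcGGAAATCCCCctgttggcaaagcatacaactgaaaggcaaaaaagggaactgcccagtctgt

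The Nfkbia window held 1 match to the κB consensus, GGAAATTCCC at -29 to -20. The Tnfaip3 window held 2, GGGACACCCC at -125 to -116, which matched on both strands, and GGAAATCCCC at -12 to -3. Of all 32851 promoter windows in the RefSeq table, 8.46% held at least 1 such match. The AP-1 letters TGANTCA, which bind Jun and Fos dimers, occurred in the Tnfaip3 window at -136 to -130, did not overlap a κB match and were not found in the Nfkbia window, and 7.81% of all windows held them. A second Tnfaip3 window, at the start of a shorter first exon, held no match to either. A match in letters does not show that a factor was bound in these livers.

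Nfkbia was abundant in Fgf18 f/f livers, and its mean in Fgf18 △HSC livers was 13.1% of that level. Its level was 361, 350 and 303 TPM in Fgf18 f/f livers 1 to 3, and 42.5, 37.9 and 51.8 TPM in Fgf18 △HSC livers 1 to 3. TPM is the number of reads on a gene per length of the gene, scaled to the total of such values in the library. The groups did not overlap, and the lowest Fgf18 f/f liver was 5.84-fold above the highest Fgf18 △HSC liver. Separate groups are no particular trait of this gene, because the listed genes were selected on this contrast. Nearly all pathway, early response and marker genes with a row had separate groups too, and the share over all listed genes was not counted. The means were 338 ± 30.7 and 44.1 ± 7.08 TPM (SD, n = 3 livers each), a 7.66-fold difference or -2.94 on the log2(TPM + 0.1) scale. The values rested on 15553, 12539 and 8783 reads for Fgf18 f/f and on 1421, 933 and 1651 reads for Fgf18 △HSC.

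Tnfaip3 differed in the same direction from a lower level. It stood at 67.7, 72.0 and 61.7 TPM in Fgf18 f/f livers 1 to 3, and at 7.17, 4.75 and 8.74 TPM in Fgf18 △HSC livers 1 to 3. Again the groups were separate, as for nearly all genes examined here, with 7.05-fold between the nearest livers. Mean levels of 67.1 ± 5.19 and 6.89 ± 2.01 TPM (SD, n = 3 livers each) gave a 9.74-fold difference, or -3.31 on the log2(TPM + 0.1) scale. Reads on the gene numbered 13095, 11590 and 8025 for Fgf18 f/f against 1075, 524 and 1250 for Fgf18 △HSC, so counting error was small beside the differences.

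**Figure D1:**
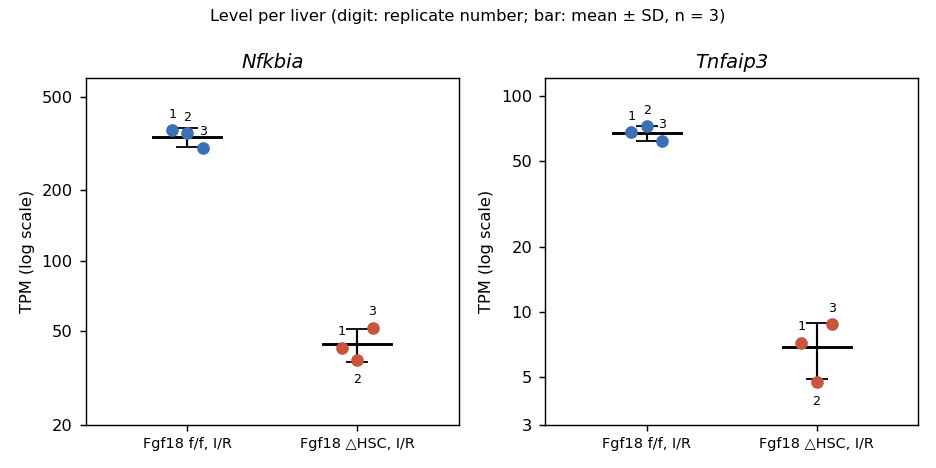
Level of Nfkbia (left) and Tnfaip3 (right) in each liver, in TPM on a log axis, for Fgf18 f/f and Fgf18 △HSC mice after I/R. Digits are replicate numbers, the wide bars are means and the error bars SD (n = 3). Every Fgf18 △HSC liver lies below every Fgf18 f/f liver, and Fgf18 △HSC liver 2 is the lowest for both genes.

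Among livers of the same genotype, the coefficient of variation was 9.10% for Nfkbia and 7.73% for Tnfaip3 with Fgf18 f/f, and 16.1% and 29.2% with Fgf18 △HSC. Fgf18 △HSC liver 2 was the lowest for both genes and liver 3 the highest. On the log2 scale, liver 2 lay at -0.20 from its group mean for Nfkbia and -0.48 for Tnfaip3, and liver 3 at 0.24 and 0.38. In the Fgf18 f/f group, liver 3 was the lowest for both, at -0.15 and -0.12.

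The ratio of the Nfkbia level to the Tnfaip3 level was 5.33, 4.86 and 4.91 for Fgf18 f/f and 5.93, 7.99 and 5.93 for Fgf18 △HSC. The ratio averaged 5.03 ± 0.259 and 6.62 ± 1.19 (SD, n = 3 livers each), without overlap, and Fgf18 △HSC liver 2 had the highest ratio. Its size depends on the gene length used. The deposited values divide by all exons joined, which is 1610 bases for Nfkbia and 7226 for Tnfaip3, while the transcripts Nfkbia-201 and Tnfaip3-201 are 1578 and 4422 bases long. With the lengths of these transcripts the ratio ran from 3.03 to 3.33 in Fgf18 f/f livers and from 3.70 to 4.99 in Fgf18 △HSC livers.

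Both genes stood near the lower edge of the table. Of all 3201 listed genes, 1118 were lower in Fgf18 △HSC livers, and 16 of them differed more than Tnfaip3 and 26 more than Nfkbia on the log2(TPM + 0.1) scale. Among the 467 genes averaging 10 TPM or more over the 6 livers, a limit chosen after the values were seen, the difference of Tnfaip3 ranked 5 and that of Nfkbia ranked 8. By level, 43 listed genes exceeded Nfkbia in Fgf18 f/f livers and 138 in Fgf18 △HSC livers, and for Tnfaip3 these numbers were 164 and 493.

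**Figure D2:**
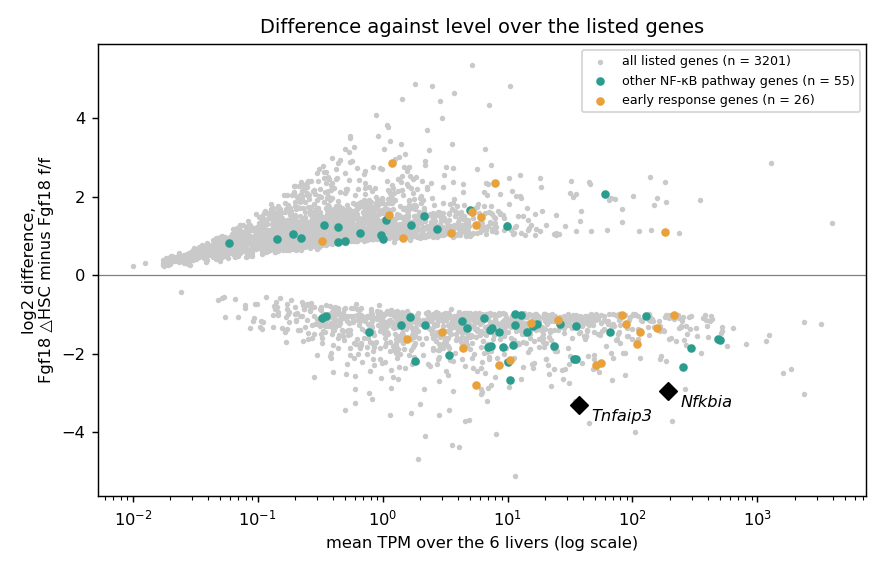
Log2 difference, Fgf18 △HSC minus Fgf18 f/f, on the log2(TPM + 0.1) scale against the mean TPM over the 6 livers (log axis), with 1 point per listed gene. Listed genes with high levels are mostly lower in Fgf18 △HSC livers. Nfkbia and Tnfaip3 (diamonds) lie below all 55 other NF-κB pathway genes and all 26 early response genes.

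The other genes of the pathway were examined from lists of 201 genes. Of these, 55 had a row. For a gene without a row, the level in these livers is not known here, since only selected genes were listed. The counts below therefore describe the listed genes and not the pathway as a whole. Log2(TPM + 0.1) was compared between the genotypes with limma over all 3201 listed genes, and calls required an adjusted p (Benjamini-Hochberg) below 0.05 together with a log2 fold change beyond 1 in either direction. By this rule 36 of the 55 genes were called lower with the deletion, 12 were called higher and 7 were not called. The background in the table was 30% of genes called lower and 41.6% called higher. Level and direction go together in this table. Among genes averaging 10 TPM or more, 80.3% were called lower and 14.6% higher, and of the 21 pathway genes at that level 19 were called lower and 1 higher, which is near that background. The median log2 fold change of those 21 genes was -1.46, against -1.21 for all 467 genes at that level. Among all 2734 listed genes averaging under 10 TPM, 21.4% were called lower and 46.3% higher. Pathway genes under 10 TPM were called lower more often than that and higher less often, which was not tested. The counts of each list below are to be read against these shares. In the comparison deposited by the authors, the smallest absolute log2 fold change is 1 and every unadjusted p is below 0.05. The call rule thus largely repeats that selection, and a gene not called here had still passed it. Since every listed gene was selected on the same livers, none of these calls is independent evidence of a difference or of its direction. The adjusted p-values given below carry the same limit, because the selection favoured small ones.

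The balance of calls depended on how livers were scaled. After rescaling every liver by its median ratio over the listed genes, the log2 fold changes of all genes shifted by a median of -0.88, and calls became 37 lower and 1 higher in the pathway and 1115 lower and 281 higher in the table. The differences became -3.98 for Nfkbia and -4.34 for Tnfaip3. No named gene changed direction under this scaling.

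No pathway gene differed as far downward as Nfkbia and Tnfaip3. The nearest, the chemokine gene Ccl4, had a log2 fold change of -2.65, against -2.94 and -3.31. No test of the distance between these genes was made, because the genotype contrast had selected all of them.

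**Figure D3:**
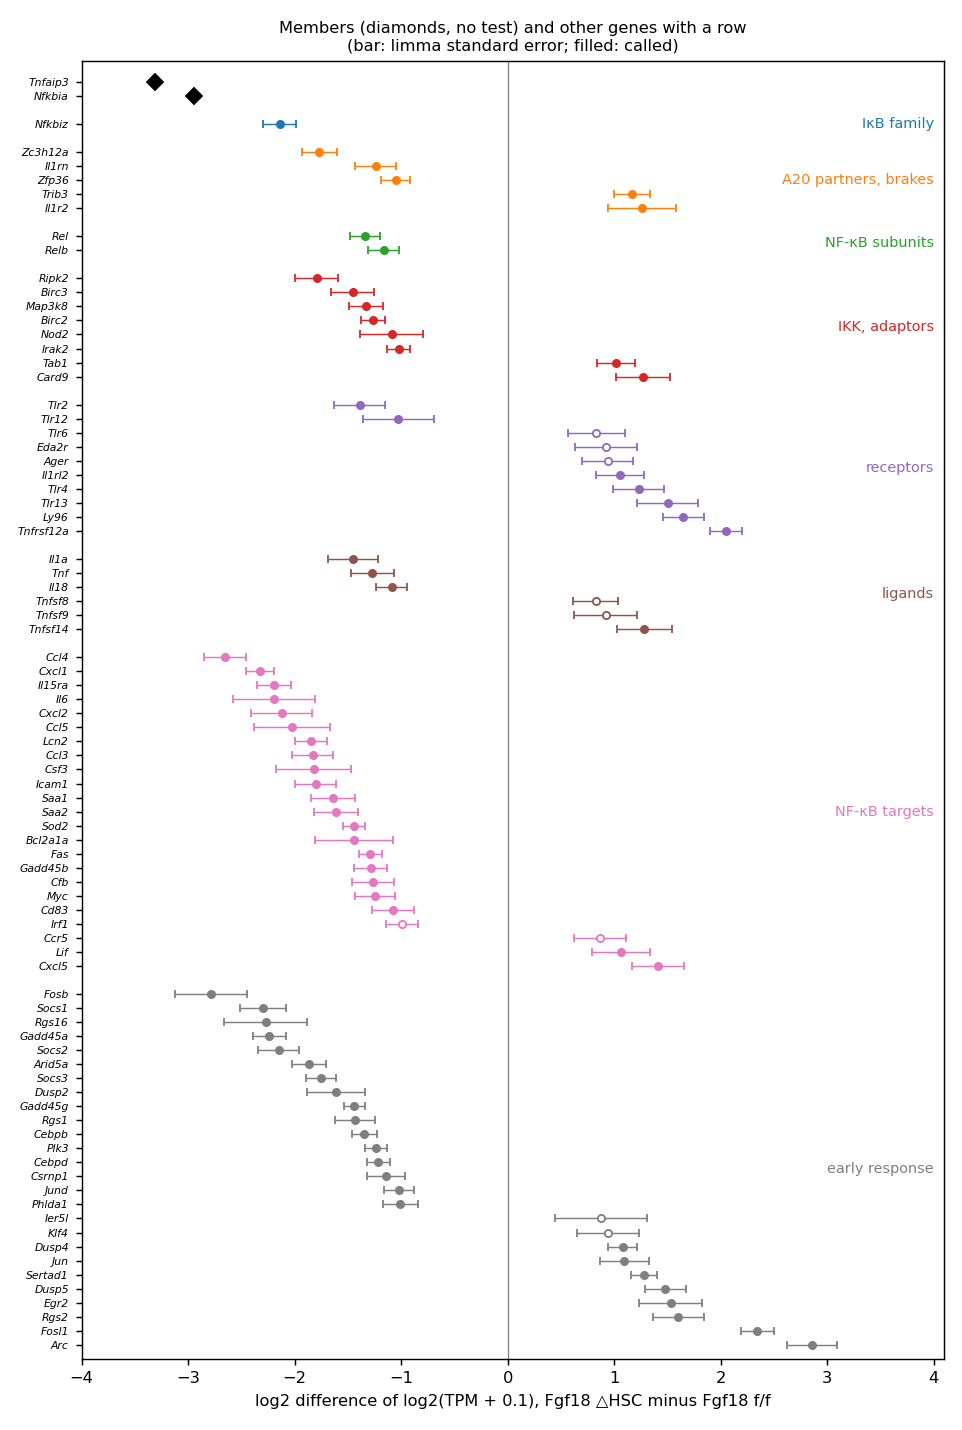
Log2 difference on the log2(TPM + 0.1) scale, Fgf18 △HSC minus Fgf18 f/f, for the 2 inhibitor genes (diamonds), the 55 other pathway genes and the 26 early response genes with a row. Error bars are limma standard errors, filled points were called and open points were not. NF-κB targets sit mostly at negative values, from -2.65 to 1.41, and receptors mostly at positive values, from -1.39 to 2.05. In the whole table, 399 of the 467 genes averaging 10 TPM or more had a negative difference. Of the genes averaging under 10 TPM, 73.7% had a positive one.

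Among the other genes of the IκB family, which are not all inhibitors, 1 of 7 had a row. Nfkbiz, which encodes the nuclear IκB protein IκBζ, was at 57.7, 57.6 and 51.2 TPM in Fgf18 f/f livers and at 13.7, 9.91 and 14.4 TPM in Fgf18 △HSC livers. It fell by 2.14 on the log2 scale (limma adjusted p = 2.26e-05, standard error, SE, 0.16). Of 24 partners of A20 and other brakes on the pathway, 5 had a row, and 3 were called lower and 2 higher.

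The 3 that fell act on RNA or on IL-1. Zc3h12a, encoding the endoribonuclease Regnase-1 that degrades cytokine mRNAs, fell from a mean of 17.2 ± 2.91 TPM to one of 4.95 ± 0.551 TPM (SD, n = 3 each), which is -1.77 on the log2 scale (limma adjusted p = 5.44e-05, SE 0.16). Zfp36, whose product tristetraprolin destabilizes AU-rich mRNAs, stood at a log2 fold change of -1.05 (limma adjusted p = 0.000231, SE 0.14), which came to -0.92 and was no longer called without Fgf18 △HSC liver 2. Il1rn, the IL-1 receptor antagonist gene, had a log2 fold change of -1.24 (limma adjusted p = 0.000566, SE 0.19). The 2 that rose were Trib3, a stress-induced pseudokinase gene (log2 fold change 1.17, limma adjusted p = 0.000359), and Il1r2, the decoy IL-1 receptor gene (log2 fold change 1.26, limma adjusted p = 0.00551). In rescaled livers neither was called, with log2 fold changes of 0.18 and 0.24, and without Fgf18 △HSC liver 3 Il1r2 came to 0.88 and was not called. Trib3 came to 0.87 with a pseudocount of 1 and was not called either.

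Of the 5 NF-κB subunit genes, 2 had a row and both were called lower. Rel, encoding c-Rel, was at 11.8, 10.9 and 9.85 TPM in Fgf18 f/f livers and at 4.89, 3.77 and 4.04 TPM in Fgf18 △HSC livers (log2 fold change -1.34, limma adjusted p = 9.36e-05, SE 0.14). Relb, encoding the partner subunit of the noncanonical pathway, had a log2 fold change of -1.16 (limma adjusted p = 0.000194, SE 0.15). With a pseudocount of 1, Relb reached -0.95 and was not called.

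Of 46 genes for the IκB kinase, its adaptors and related signaling proteins, 8 had a row, with 6 called lower and 2 higher. Ripk2, the kinase that relays NOD signals, changed most (log2 fold change -1.79, limma adjusted p = 0.00011). Birc3 and Birc2 encode the ubiquitin ligases cIAP2 and cIAP1 of the TNF receptor complex, and their log2 fold changes were -1.46 and -1.26 (limma adjusted p = 0.000341 and 4.64e-05). Map3k8, encoding a kinase downstream of Toll-like receptors, was at -1.33 (limma adjusted p = 0.000162). Irak2, encoding a kinase of the IL-1 receptor complex, was at -1.02 (limma adjusted p = 9.39e-05) and lost its call without Fgf18 f/f liver 2, without Fgf18 △HSC liver 3 or with a pseudocount of 1, at -0.997, -0.97 and -0.95.

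Of 34 receptor genes 10 had a row, and 5 were called higher, 2 lower and 3 were not called. Tnfrsf12a, the receptor for TWEAK, rose from a mean of 23.5 ± 3.33 TPM to one of 97.8 ± 13.6 TPM (SD, n = 3 each), which is 2.05 on the log2 scale (limma adjusted p = 2.35e-05, SE 0.15), and in rescaled livers it came to 1.02 and was the pathway gene still called higher. Ly96, the partner of Toll-like receptor 4 in sensing lipopolysaccharide, had a log2 fold change of 1.65 (limma adjusted p = 0.000134) and Tlr13, a receptor for bacterial ribosomal RNA, one of 1.502 (limma adjusted p = 0.00141). In rescaled livers these were 0.64 and 0.53 and were not called. Tlr2, which senses bacterial lipoproteins, fell by 1.39 on the log2 scale (limma adjusted p = 0.000898).

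Of 20 ligand genes 6 had a row, and 3 were called lower and 1 higher. The cytokine genes Il1a, Tnf and Il18 had log2 fold changes of -1.45, -1.27 and -1.09 (limma adjusted p = 0.000674, 0.000608 and 0.000243). With a pseudocount of 1 Tnf came to -0.88 and Il18 to -0.95, and neither was called. Tnfsf14, encoding the TNF family ligand LIGHT, had a log2 fold change of 1.28 (limma adjusted p = 0.00189), which was 0.32 and not called in rescaled livers and 0.81 and not called with a pseudocount of 1.

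Of 65 well-known NF-κB target genes other than inhibitors, 23 had a row, with 19 called lower, 2 higher and 2 not called. Over all listed genes 30% were called lower and 41.6% higher. Among those averaging 10 TPM or more, the shares were 80.3% and 14.6%. Ccl4 was at 18.5, 18.4 and 17.3 TPM in Fgf18 f/f livers and at 3.21, 1.98 and 3.37 TPM in Fgf18 △HSC livers (limma adjusted p = 2.4e-05). Cxcl1, a neutrophil-attracting chemokine gene at a level like that of Nfkbia, fell from a mean of 420 ± 35.4 TPM to one of 83.8 ± 11.3 TPM (SD, n = 3 each), which is -2.33 on the log2 scale (limma adjusted p = 1.28e-05, SE 0.13). Cxcl2, which encodes a related chemokine, had a log2 fold change of -2.12 (limma adjusted p = 0.000276). Il15ra, the gene of the IL-15 receptor alpha chain, and Il6 were each at -2.20 (limma adjusted p = 2.22e-05 and 0.00098). With a pseudocount of 1 they came to -1.95 and -1.30.

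Promoter windows were found for 39 of the 55 pathway genes. At least 1 match to the κB consensus was present in 7 of 27 genes with lower values in Fgf18 △HSC livers (25.9%) and in 1 of 12 with higher values (8.33%), against 9.55% of all 27025 genes with a window. The 7 were Cxcl1, Cxcl2, Il6, Irf1, Rel, Sod2 and Tlr2. The lists were assembled from known NF-κB biology, so these shares are a description of the lists.

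Many fast-induced transcripts outside the pathway were listed too. Of 70 immediate early and other feedback genes 26 had a row, and 16 were called lower, 8 higher and 2 were not called. None of the 26 fell further than Nfkbia. Fosb, an AP-1 subunit gene, came nearest with a log2 fold change of -2.78 (limma adjusted p = 0.000161, SE 0.34), which was -2.18 with a pseudocount of 1. Socs1, the feedback inhibitor of JAK kinases, was at -2.29 (limma adjusted p = 5.86e-05) and Rgs16, a regulator of G protein signaling, at -2.27 (limma adjusted p = 0.000873). In the other direction, the AP-1 subunit gene Fosl1 had a log2 fold change of 2.34 (limma adjusted p = 1.81e-05), and Arc, an activity-regulated gene at under 3 TPM in every liver, had one of 2.86 (limma adjusted p = 3.37e-05), which was 1.38 with a pseudocount of 1. Of the 12 early response genes averaging 10 TPM or more, 11 were called lower and 1 higher, beside the 80.3% and 14.6% of all genes at that level.

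The genes whose pattern over the 6 livers was most like each inhibitor were sought among 1127 other protein-coding genes averaging 1 TPM or more, by Pearson's r of log2(TPM + 0.1). The livers form 2 clusters by genotype, so r describes mostly that difference, and it is given without a test. For Tnfaip3 the closest were Nfkbiz (r = 0.9993), the myosin light chain kinase gene Mylk (0.9990), the phosphofructokinase gene Pfkm (0.9988), Ccl4 (0.9987) and the activin-binding protein gene Fst (0.9982). For Nfkbia they were Prickle1 (0.9995), the NAD synthesis gene Nampt (0.9989), the ceramidase gene Asah2 (0.9988), the phosphodiesterase gene Pde4b (0.9988) and Tsku (0.9984). Between Nfkbia and Tnfaip3 r was 0.9967, which ranked 12 for Nfkbia and 11 for Tnfaip3. The likeness is of shape and not of size, since these 10 genes differed by -0.97 to -2.65 on the log2 scale, less than either inhibitor.

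**Figure D4:**
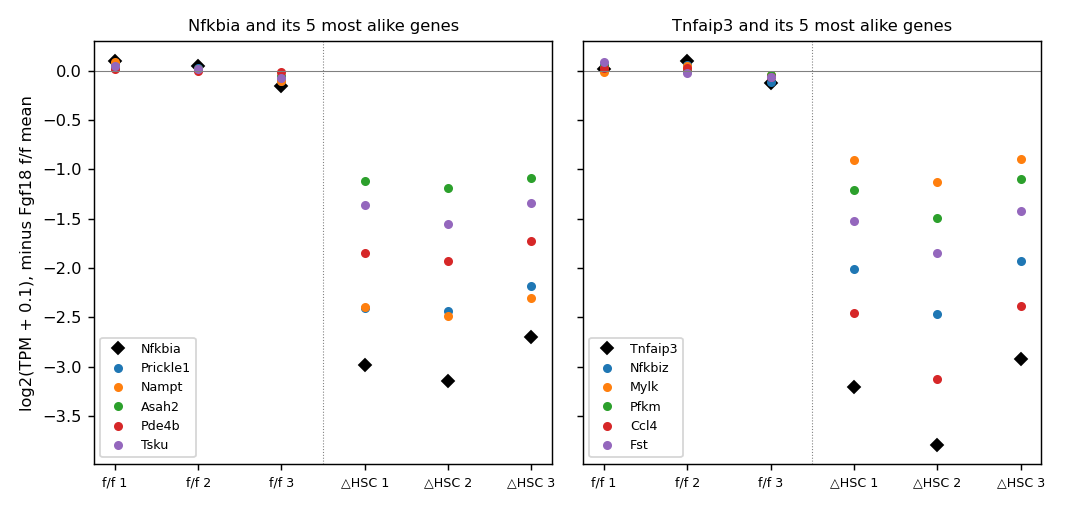
Log2(TPM + 0.1) in each of the 6 livers, minus the mean of the 3 Fgf18 f/f livers, for Nfkbia (left) and Tnfaip3 (right, both as diamonds) and the 5 genes most like each. In the right panel Nfkbiz, Ccl4 and the other genes share the lower value of Fgf18 △HSC liver 2 with Tnfaip3, and each diamond lies below the circles of its liver in the Fgf18 △HSC group. The circles were picked for likeness over these same livers, so the shared lower value is partly a product of that choice.

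Markers of liver cell types differed between the groups as well, counted here by the sign of the difference, and their part in the results was not tested. Of 11 hepatocyte markers, Cyp2e1 and Cyp3a11 had a row, and their summed level ran from 2472 to 2599 TPM in Fgf18 f/f livers and from 717 to 1007 TPM in Fgf18 △HSC livers. Both were lower, as were 399 of the 467 listed genes averaging 10 TPM or more. In the table as a whole, the difference was positive for 65.1% of the 3201 genes and for 73.7% of the 2734 genes averaging under 10 TPM. One-sided marker counts are to be read against these shares. All 7 listed macrophage and monocyte markers of 16 were higher in Fgf18 △HSC livers, with sums of 19.5 to 22.6 TPM against 51.3 to 78.4 TPM. The same held for 6 of 12 endothelial markers, at 19.4 to 21.3 against 43.0 to 60.4 TPM, and for 9 of 15 HSC and fibroblast markers, at 7.42 to 9.47 against 20.8 to 30.8 TPM. Of 6 listed neutrophil markers 3 were higher and 3 lower, of 5 listed cholangiocyte markers 4 were higher and 1 lower, and the 14 lymphocyte markers had no row. Defining markers such as Alb, Clec4f and Stab2 were looked up and had no row in this selected table, and no listed marker set was at 0.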

How the data were processed

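RNA-seq was performed on 6 whole livers. According to the methods and the submitters' processing notes, the authors trimmed reads with cutadapt 2.5, aligned them to GRCm38 (mm10) with HISAT2 2.1.0, counted reads per gene with featureCounts 1.6.3 and compared the groups with DESeq2. The deposited table gives 1 value per gene and liver, taken as TPM. The unit is not named there, and RPKM cannot be told apart from it. A value times the joined exon length (GENCODE M21) was a whole number of reads within 0.02 for 92.2 to 92.6% of values below 5000 reads, and reads were recovered from this relation. One read per kb was worth 0.0374 to 0.0655 TPM. Library totals are unknown. The authors' log2 fold changes and p-values in the deposited table were read only to establish how its genes had been selected.

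Groups were taken from the sample titles, and the genotypes behind them from the methods. The genotypes were compared with limma 3.58.1 in R 4.3.3 (mean-variance trend, no block, no filter) on log2(TPM + 0.1) over all 3201 genes. Tested on simulated data with 200 of 3201 genes changed by 2 on the log2 scale between the genotypes, the fit recovered 82% and made 4 false calls. Among those averaging 1 TPM or more, 92.9% were recovered. Pathway, early response and marker lists were written from general knowledge. Of their 361 symbols 357 are in GENCODE M21. The 2 genes and the lists were chosen with earlier results of these data known. All listed IκB, A20-related and NF-κB subunit genes are named, and from each other list the up to 5 largest called changes with at least 1 TPM in either group. Alternatives were pseudocounts of 0.01 and 1, a minimum mean of 1 TPM, livers rescaled by their median ratio, no variance trend, the replicate number as a block and each liver left out. Promoters came from RefSeq (GRCm38.p6). One listed gene with a larger difference than Tnfaip3 is not reported here.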

Additional observations from a re-analysis of the deposited data

How the results depend on the processing

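The direction of Nfkbia and Tnfaip3 was the same in all alternatives run. Left-out livers moved Nfkbia between -3.06 and -2.84 and Tnfaip3 between -3.50 and -3.06, and pathway calls between 10 and 14 higher and between 33 and 36 lower. Rescaling the livers by their median ratio gave -3.98 for Nfkbia, -4.34 for Tnfaip3, 281 listed genes called higher (1333 as reported) and 1 pathway gene called higher (12 as reported). By construction this scaling rests on genes selected for a difference, most of them higher in Fgf18 △HSC livers. With a pseudocount of 1, 266 listed genes were called higher and 566 lower (961 as reported), and 4 pathway genes were called higher. With a minimum mean of 1 TPM, where fewer genes are tested, 522 listed genes and 7 pathway genes were called higher. A pseudocount of 0.01 gave 1995 higher and 1048 lower, within 1.5 times the reported counts. The same numbers occur in both groups of livers, but deviations from the group means of same-numbered livers correlated at 0.057, 0.0060 and 0.031 over genes, so the numbers were not taken as pairs. The replicate block gave -2.94 for Nfkbia, -3.31 for Tnfaip3, 1337 listed genes called higher and 963 lower, and it changed no call of a named gene. Library totals are unknown, so the level of all RNA per liver could not be checked, and values of genes under 1 TPM rest on few reads.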

Other observations

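Some listed genes averaging 10 TPM or more had a larger difference downward than Tnfaip3 on the log2(TPM + 0.1) scale, and they were looked up after their values were seen. Among them were the long noncoding RNA gene Gm32468 (-5.10), the microRNA gene Mir6386 (-3.76) and Mup14, a major urinary protein gene with close copies that can share reads (-3.70). Between Tnfaip3 and Nfkbia lay Gsta2, a glutathione S-transferase gene (-3.21), and the mitochondrial transfer RNA gene mt-Ts1 (-3.03). None of the genes named here is in the pathway lists.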
